A study of Mus musculus with 6 samples.

Results

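PRR14 and 9 genes of the nuclear lamina, the nuclear envelope and heterochromatin were followed in skeletal muscle of PRR14-knockout mice. The 10 genes were taken by symbol from a table of 22036 genes, and each symbol matched 1 row: Prr14 itself, the lamins Lmna, Lmnb1 and Lmnb2, the inner-membrane gene Emd, the bridge genes Sun1, Sun2, Syne1 and Syne2, and the HP1 gene Cbx5. All 6 samples were labelled KO. In the MEF2C group (3 libraries) the muscle had received AAV, a viral vector that delivers genes, for MEF2C-GFP; MEF2C is a transcription factor of muscle and GFP a fluorescent reporter. In the GFP group (3 libraries) the treatment was GFP alone. Tissue was profiled 1 month after injection by Oxford Nanopore PCR-cDNA sequencing. The muscle, the strain, the age and sex, the promoter in the virus, and the exons removed in the knockout are not stated in the sources used here. The comparison asks what supplied MEF2C does in muscle that lacks PRR14; wild-type muscle was not analysed here.

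The lamina is a meshwork of lamin filaments under the inner nuclear membrane that holds the shape of the nucleus and anchors silent chromatin. PRR14 was described in human cells as a tether between these structures: it binds heterochromatin through HP1 proteins, which recognise methylated histone tails, and it binds the lamina through A-type lamins. SUN proteins cross the inner membrane and join nesprins, the products of Syne1 and Syne2, in the outer membrane, and this LINC bridge (linker of nucleoskeleton and cytoskeleton) carries force into the nucleus. In skeletal muscle the system is known for positioning nuclei in the fibre, and human mutations in LMNA, EMD, SYNE1 and SYNE2 are linked to Emery-Dreifuss muscular dystrophy.

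The listed counts per library lay between 3370833 and 3900617. A count of 0 allows up to 3 reads, or between 0.769 and 0.890 CPM (reads scaled to a common library size), and such limits cover counting error only, since the reads carry no molecular identifiers. Libraries of a group differed by more than sampling noise, with a chi-square per degree of freedom between 4.95 and 10.3. No label says that the libraries are separate animals, so p-values measure the spread between these samples, which may be technical. The row of the mouse gene Mef2c does not separate the labels: Mef2c stood at 234, 196 and 371 CPM across MEF2C replicates 1 to 3, and at 223, 261 and 236 CPM across GFP replicates 1 to 3. Its groups overlapped, with a log2 fold change of 0.15 ± 0.22 (SE; 95% interval -0.33 to 0.64; edgeR adjusted p = 0.993), and directions below are those of the libraries labelled MEF2C. The counting is not stated in the sources used here, so whether this row holds reads of the supplied MEF2C-GFP is not known. The samples read as skeletal muscle: 6 fibre markers, among them Acta1, Ckm and Myh4, summed to between 102751 and 116179 CPM in the MEF2C libraries and between 122615 and 146731 CPM in the GFP libraries.

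Upstream sequence of 9 of the 10 genes was read from RefSeq (GRCm38.p6), as 15 windows of 250 bases before a start; the other gene, Lmnb1, is named only. The window of Prr14 is shown because this is the gene the mice lack, and one window of Lmnb2 because it alone holds the loose MEF2 pattern of CTA, any 4 bases and TAG. In the GENCODE vM21 annotation the Prr14 window lies within the gene, since other transcripts start further upstream, the first at 127459611. Only the stretch free of annotated exons is printed, 5′ to 3′ on the strand of the gene. Capitals mark, in Prr14, the reverse complement of the promoter element CCAAT and, in Lmnb2, the match to the loose MEF2 pattern.
Prr14, chr7:127471364-127471448, plus strand: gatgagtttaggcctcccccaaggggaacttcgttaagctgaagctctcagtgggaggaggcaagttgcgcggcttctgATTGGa
Lmnb2, internal start, chr10:80906413-80906662, minus strand: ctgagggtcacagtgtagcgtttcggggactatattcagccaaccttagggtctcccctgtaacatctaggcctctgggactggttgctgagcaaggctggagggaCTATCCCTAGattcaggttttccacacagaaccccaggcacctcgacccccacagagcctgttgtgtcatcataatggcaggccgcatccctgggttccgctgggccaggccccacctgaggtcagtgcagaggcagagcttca
The stricter consensus known as the MEF2 site was found in 0 of the 15 windows, searched on both strands, and in 2.92% of all 32851 windows of that length. The loose pattern, which also contains every strict match that begins with C and ends with G, was in 1 of the 15 and in 3.20% of all windows. CCAAT was in 7 of the 15, spread over 6 genes, and in 33.8% of all windows. A match is a string of letters and not a binding site.

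No gene of the 10 changed past the threshold between the libraries labelled MEF2C and GFP. A gene was called when its edgeR p, adjusted by Benjamini-Hochberg over all 9229 genes tested, was under 0.05, and 0 members were called where 7 of all genes (0.0758%) were. A low-count filter left 8 of the 10 in the test; Lmnb1 and Lmnb2 did not pass it. At an unadjusted p under 0.05 there was 1 member, Prr14, among the 8, where 5.71% of all genes stood (3.36% on the higher side). The libraries of the groups did not overlap for 2 of the 8, Prr14 above and Sun1 below the GFP libraries, beside 11.1% of all genes (5.75% higher and 5.33% lower). Of the 8, 4 had a positive log2 fold change, and the median was 0.03, against 0.01 over all genes tested. DESeq2 and limma-voom also called 0 members, with 0 at an unadjusted p under 0.05, beside 2.03% and 5.50% of all genes. DESeq2 gave no adjusted p to Prr14, Sun2, Lmnb1 and Lmnb2. In bulk tissue, more cells of a type and more RNA per cell cannot be told apart in any of these values.

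**Figure D1:**
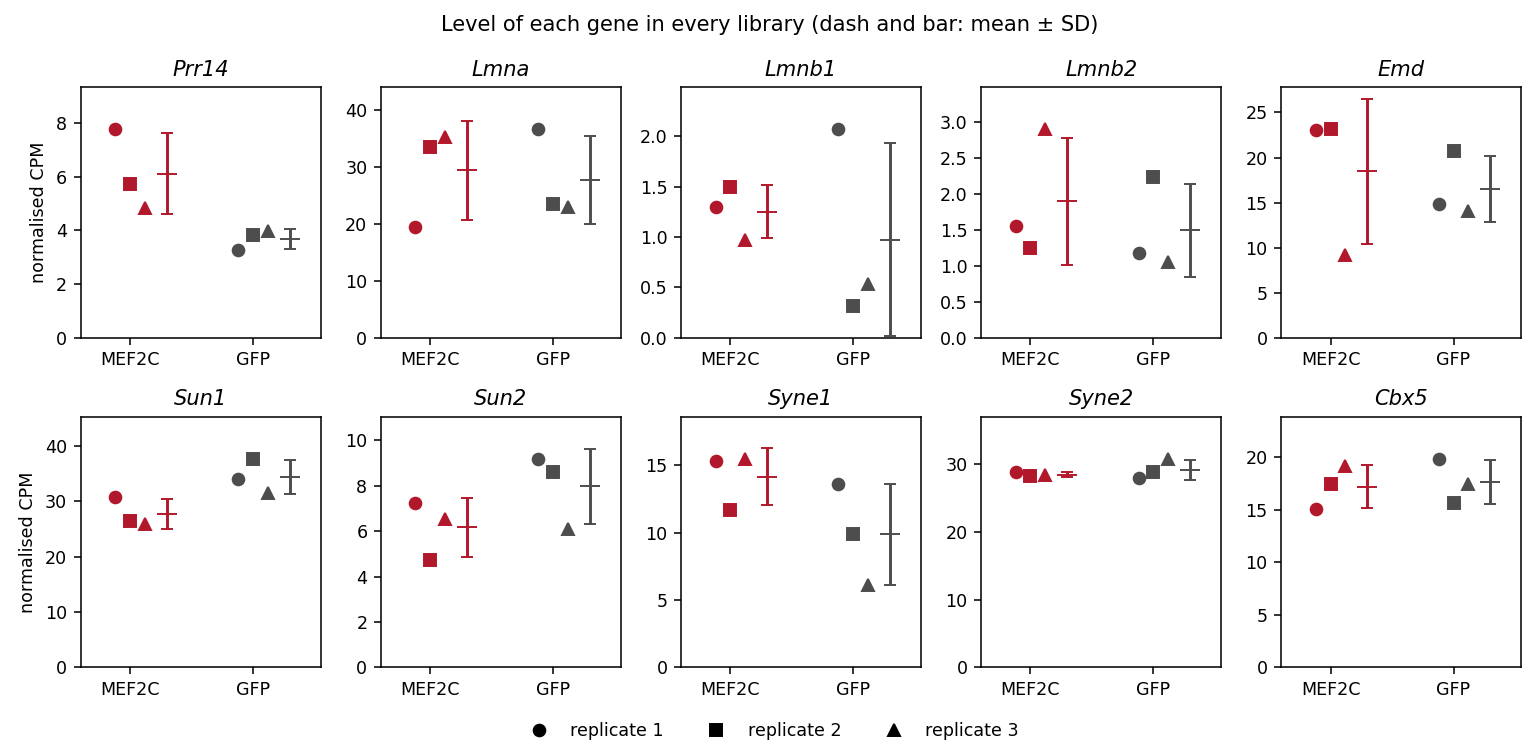
Normalised CPM (y axis, from 0) of each gene in the 3 MEF2C libraries (left) and the 3 GFP libraries (right), with symbols for replicate numbers and a dash and bar for the mean ± SD. Prr14 lies higher in every MEF2C library and Sun1 lower, while Syne2 stays between 27.9 and 30.7 CPM in all 6 libraries.

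Prr14 (ENSMUSG00000030822, GRCm38 chromosome 7, 127459611 to 127476759, plus strand, protein-coding) still gave reads in every knockout library. Its normalised level was 7.77, 5.73 and 4.84 CPM across MEF2C replicates 1 to 3, against 3.26, 3.83 and 3.98 CPM across GFP replicates 1 to 3. Each MEF2C library lay above each GFP library, on 73 reads in the MEF2C group and 38 in the GFP group. The log2 fold change was 0.72 ± 0.32 (SE), with a 95% interval from 0.04 to 1.40, an unadjusted p of 0.0402 and an edgeR adjusted p of 0.856. It ranked 429th by p among all genes tested. By exact permutation, two-sided, p was 0.1, the smallest that 3 libraries against 3 allow.

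The Prr14 difference was positive in 15 of the 16 alternatives, and the strict filter left the gene out. Its size and p moved with single libraries: the log2 fold change was 0.51 without MEF2C replicate 1 (unadjusted p = 0.178) and 0.86 without MEF2C replicate 3 (0.0230). The unadjusted edgeR p was 0.0587 without MEF2C replicate 2. It was 0.108, 0.0678 and 0.0629 without GFP replicates 1, 2 and 3 in turn. DESeq2 gave an unadjusted p of 0.149 and limma-voom 0.0538. GENCODE vM21 lists 11 transcripts for the gene, of which ENSMUST00000033095 with 11 exons is the longest at 2402 bases. Some lie within the 3′ part alone, such as ENSMUST00000206915 (127475519 to 127476755). Counts per gene do not say which exons the reads cover, so they are no check of the knockout. Only 49 exon bases (1.1%) overlap another gene, the same-strand transcript B130055M24Rik.

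Of the 3 nearest listed genes on each side of Prr14 on chromosome 7, only Srcap, a chromatin-remodelling ATPase downstream, was tested. It gave 37, 30 and 29 reads across MEF2C replicates 1 to 3, against 27, 29 and 24 reads across GFP replicates 1 to 3. Its normalised levels overlapped between groups (log2 fold change 0.03 ± 0.27 SE; 95% interval -0.54 to 0.60; edgeR adjusted p = 0.996). Fbrs, the next gene downstream, had 9, 8 and 14 counts across MEF2C replicates 1 to 3 and 11, 7 and 5 counts across GFP replicates 1 to 3. The genes whose log2 level over the 6 libraries was most like that of Prr14 were Commd6, Ass1 and Fbln2 (Pearson r of 0.992, 0.991 and 0.989), the best of 7137 genes ranked. With 6 libraries 20 genes exceeded 0.95, and this ranking is a description only. Commd6 stood at 39.4, 33.6 and 29.8 CPM across MEF2C replicates 1 to 3, and at 26.1, 27.4 and 27.8 CPM across GFP replicates 1 to 3.

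Lmna (ENSMUSG00000028063, chromosome 3, 88480147 to 88509956, minus strand), which makes lamins A and C by splicing, varied within both groups as much as between them. It stood at 19.4, 33.6 and 35.3 CPM across MEF2C replicates 1 to 3, and at 36.7, 23.6 and 23.1 CPM across GFP replicates 1 to 3. The lowest library was labelled MEF2C and the highest GFP, and the groups overlapped. The means were 29.5 ± 8.73 CPM in MEF2C libraries and 27.8 ± 7.75 CPM in GFP libraries (SD, n = 3 each). The log2 fold change of 0.09 ± 0.25 (SE; 95% interval -0.47 to 0.64; edgeR adjusted p = 0.993) turned negative when MEF2C replicate 2, MEF2C replicate 3, GFP replicate 2 or GFP replicate 3 was left out (-0.02, -0.07, -0.02 and -0.04).

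The B-type lamins, which stay membrane-bound through a lipid anchor, were near the limit of detection. Lmnb1, on chromosome 18, had 5, 6 and 4 counts across MEF2C replicates 1 to 3 and 7, 1 and 2 counts across GFP replicates 1 to 3. Lmnb2 (chromosome 10, 80901203 to 80918245, minus strand) had 6, 5 and 12 counts across MEF2C replicates 1 to 3 and 4, 7 and 4 counts across GFP replicates 1 to 3. A difference in either gene was not detectable at this depth: both overlapped between groups and neither passed the filter. Of the reads of the 3 lamin genes, Lmna took 87.2%, 92.5% and 90.1% across MEF2C replicates 1 to 3, and 91.9%, 90.2% and 93.5% across GFP replicates 1 to 3. The Wilson 95% intervals of these shares ran from 78.5% to 97.0% in all. The log2 ratio of Lmna to the sum of Lmnb1 and Lmnb2 was 3.19 ± 0.42 in MEF2C libraries and 3.52 ± 0.33 in GFP libraries (SD, n = 3 each; exact two-sided permutation p = 0.4, adjusted over the 3 ratios compared 0.6).

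Summed markers of dividing and of marrow cells were highest in 1 of these libraries. The 7 granulocyte genes, among them S100a8, Elane and Mpo, summed to 1200 CPM in MEF2C replicate 1, to 4.23 and 2.90 CPM in MEF2C replicates 2 and 3, and to 2.67, 2.23 and 74.5 CPM across GFP replicates 1 to 3. Mpo was at 0 counts in MEF2C replicates 2 and 3 and in GFP replicates 1 and 2. The 7 cycling-cell genes summed to between 28.6 and 59.3 CPM in MEF2C libraries and between 30.5 and 36.8 CPM in GFP libraries, with MEF2C replicate 1 highest. Within that list Pcna was highest in GFP replicate 2 (25.2 CPM, against 23.3 CPM in MEF2C replicate 1). Stmn1 was highest in GFP replicate 1 (11.3 CPM, against 10.1 CPM in MEF2C replicate 1). The remaining genes of the list were highest in MEF2C replicate 1. MEF2C replicate 1 had the highest Prr14 level and the lowest Lmna level of the 6. The 5 erythroid genes, which mark red blood cells and their precursors, summed higher in every MEF2C library than in any GFP library. Their sums were 8631, 4393 and 4854 CPM across MEF2C replicates 1 to 3, against 3723, 3080 and 4166 CPM across GFP replicates 1 to 3, and all 5 had a positive log2 fold change. Within the list Hba-a1 overlapped, at 24.4 CPM in MEF2C replicate 2 and 31.3 CPM in GFP replicate 3. MEF2C replicate 1 was highest in this list as it was in Prr14. Sums of the skeletal muscle markers (lower in MEF2C libraries) and of the slow-fibre markers (higher) did not overlap between groups either. Of the 6 skeletal muscle markers 2 nevertheless had a positive log2 fold change, Des among them. The part of these cells and fibres in the levels of Prr14 and the lamins was not tested.

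Markers of 4 further cell types overlapped between the groups. The sums ran from 1569 to 2022 CPM in MEF2C libraries and from 1841 to 2041 CPM in GFP libraries for 5 fibroblast genes, and from 249.3 to 305 CPM in MEF2C libraries and from 244 to 263 CPM in GFP libraries for 5 endothelial genes. The 5 macrophage genes summed to between 49.0 and 64.7 CPM in MEF2C libraries and between 45.6 and 69.2 CPM in GFP libraries. The 4 satellite-cell genes summed to between 5.18 and 8.22 CPM in MEF2C libraries and between 6.22 and 9.81 CPM in GFP libraries. Of the 10 marker lists 0 held a gene at 0 in all libraries.

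Emd (ENSMUSG00000001964, chromosome X, 74254687 to 74261548, plus strand) encodes emerin, an inner-membrane protein that binds lamins and chromatin. It split the MEF2C group, at 23.1, 23.2 and 9.20 CPM across MEF2C replicates 1 to 3, against 14.8, 20.7 and 14.0 CPM across GFP replicates 1 to 3. MEF2C replicates 1 and 2 lay above all GFP libraries and MEF2C replicate 3 lay below all of them. Its log2 fold change was 0.16 ± 0.33 (SE; 95% interval -0.58 to 0.91; edgeR adjusted p = 0.993). Without MEF2C replicate 3 it was 0.49 (unadjusted p = 0.0469), and without MEF2C replicate 1 or 2 it was -0.03 or -0.04.

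Slow-fibre genes were also lowest in MEF2C replicate 3 within that group, though above all GFP libraries. The 6 slow-fibre markers, such as Myh7 and Tnnt1, summed to 1195, 1179 and 243 CPM across MEF2C replicates 1 to 3, and to 61.3, 58.4 and 92.2 CPM across GFP replicates 1 to 3. The 5 bone markers, such as Bglap and Ibsp, summed to 213, 90.9 and 32.2 CPM across MEF2C replicates 1 to 3, and to between 33.2 and 44.3 CPM in GFP libraries. Their part in the Emd level was not tested. Exons of Emd share 343 bases (13.6% of the exon length) with the same-strand pseudogene Gm14686, and the counting rule for such reads is not given in the sources used here.

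Sun1 and Sun2 make the inner side of the LINC bridge and can substitute for each other at many sites in mice. Sun1 (ENSMUSG00000036817, chromosome 5, 139200637 to 139249840, plus strand) stood at 30.8, 26.4 and 25.9 CPM across MEF2C replicates 1 to 3, against 34.1, 37.6 and 31.5 CPM across GFP replicates 1 to 3. Every MEF2C library was below every GFP library, narrowly for MEF2C replicate 1 and GFP replicate 3. On the log2 scale the fold change was -0.31 ± 0.16 (SE; 95% interval -0.66 to 0.04; unadjusted p = 0.0745; edgeR adjusted p = 0.928; exact two-sided permutation p = 0.1). The groups also did not overlap with DESeq2 size factors or with TMM factors without the 50 most abundant genes (log2 fold change -0.32 in both). With library totals in place of TMM factors they overlapped and the log2 fold change was -0.18, where the median of all genes moved up by 0.13.

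Antisense genes share 302 exon bases with Sun1 and 147 with Sun2, and without a stated strand rule their reads cannot be told apart. Sun2 (chromosome 15, 79724070 to 79742536, minus strand) stood at 7.25, 4.73 and 6.53 CPM across MEF2C replicates 1 to 3, and at 9.18, 8.61 and 6.10 CPM across GFP replicates 1 to 3. The GFP replicate 3 value lay inside the MEF2C range, so the groups overlapped, with a log2 fold change of -0.36 ± 0.29 (SE; 95% interval -0.98 to 0.26; edgeR adjusted p = 0.976). Sun1 took 81.0%, 84.8% and 79.9% of their reads across MEF2C replicates 1 to 3, and 78.8%, 81.4% and 83.8% across GFP replicates 1 to 3. The log2 ratio of Sun2 to Sun1 differed by -0.05 between MEF2C and GFP libraries (exact two-sided permutation p = 0.8, adjusted 0.8), and turned to 0.09 without MEF2C replicate 2 and 0.06 without GFP replicate 1.

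**Figure D2:**
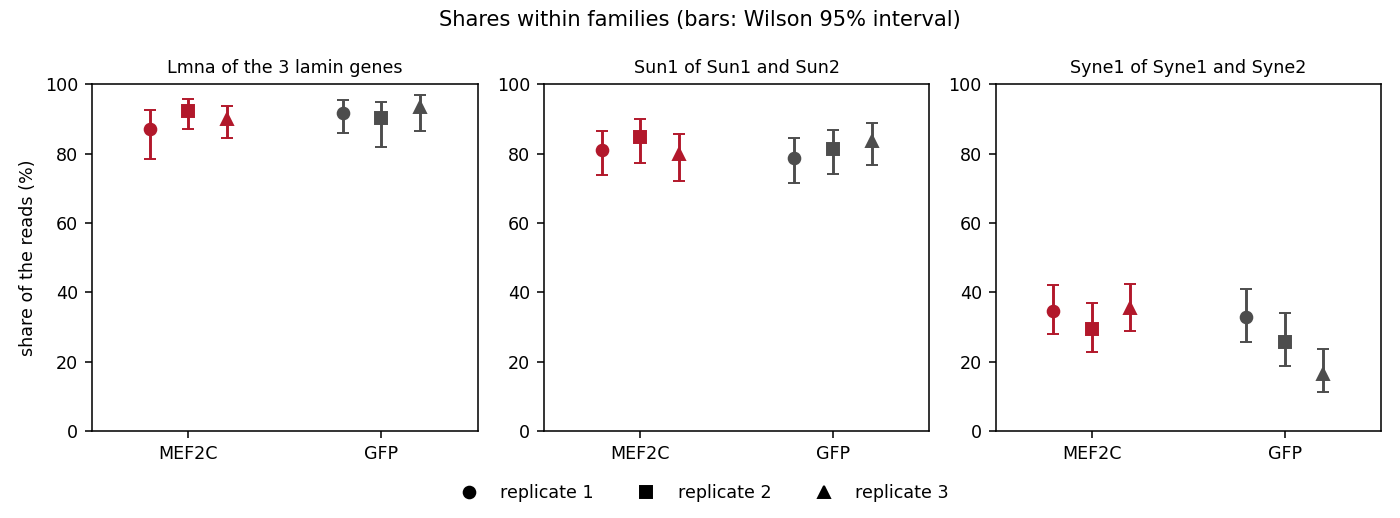
Share of reads in percent (y axis, 0 to 100) taken by Lmna among the 3 lamin genes, by Sun1 of the SUN pair and by Syne1 of the nesprin pair, in each MEF2C (left) and GFP (right) library, with Wilson 95% intervals. Lmna and Sun1 shares overlap between groups, and GFP replicate 3 has the lowest Syne1 share at 16.5%.

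Syne1 and Syne2 encode the giant nesprins, which reach from the outer nuclear membrane to actin and other filaments. In mouse muscle Syne1 is known for anchoring nuclei under the neuromuscular junction. Syne1 (ENSMUSG00000096054, chromosome 10, 5020917 to 5551482, minus strand) stood at 15.3, 11.7 and 15.5 CPM across MEF2C replicates 1 to 3, and at 13.6, 9.89 and 6.10 CPM across GFP replicates 1 to 3. MEF2C replicate 2 lay below GFP replicate 1, and the groups overlapped. As a log2 fold change this was 0.53 ± 0.27 (SE; 95% interval -0.06 to 1.12; unadjusted p = 0.0749; edgeR adjusted p = 0.928).

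Single libraries set the size of the Syne1 difference. Without GFP replicate 3 its log2 fold change was 0.26 (unadjusted p = 0.350) and without GFP replicate 1 it was 0.82 (unadjusted p = 0.0117). With library totals it was 0.65 (0.0468), and with a correction for transcript length 0.39 (0.134). After that correction the groups did not overlap, as was so for 12.1% of all genes. The correction bears on this gene because its longest transcript has 27908 bases, the longest of the 10, and shorter transcripts of the gene are counted with it.

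Syne2 (chromosome 12, 75818134 to 76110926, plus strand) was the steadiest of the genes. It stood at 28.8, 28.1 and 28.3 CPM across MEF2C replicates 1 to 3, and at 27.9, 28.7 and 30.7 CPM across GFP replicates 1 to 3. The groups overlapped, and the log2 fold change was -0.04 ± 0.16 (SE), with a 95% interval from -0.37 to 0.30 (edgeR adjusted p = 0.993). Of the reads of the pair, Syne1 took 34.7%, 29.4% and 35.4% across MEF2C replicates 1 to 3, and 32.9%, 25.6% and 16.5% across GFP replicates 1 to 3. The log2 ratio of Syne2 to Syne1 was 1.02 ± 0.22 in MEF2C libraries and 1.63 ± 0.66 in GFP libraries (SD, n = 3 each), a difference of -0.62 (exact two-sided permutation p = 0.2, adjusted 0.6).

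Cbx5 (ENSMUSG00000009575, chromosome 15, 103191544 to 103239816, minus strand) encodes HP1 alpha, the heterochromatin protein to which PRR14 binds in human cells. It stood at 15.03, 17.4 and 19.1 CPM across MEF2C replicates 1 to 3, and at 19.9, 15.6 and 17.5 CPM across GFP replicates 1 to 3. The groups overlapped, with means of 17.2 ± 2.06 CPM in MEF2C libraries and 17.7 ± 2.11 CPM in GFP libraries (SD, n = 3 each). The log2 fold change was -0.04 ± 0.20 (SE), with a 95% interval from -0.46 to 0.39 (edgeR adjusted p = 0.993).

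**Figure D3:**
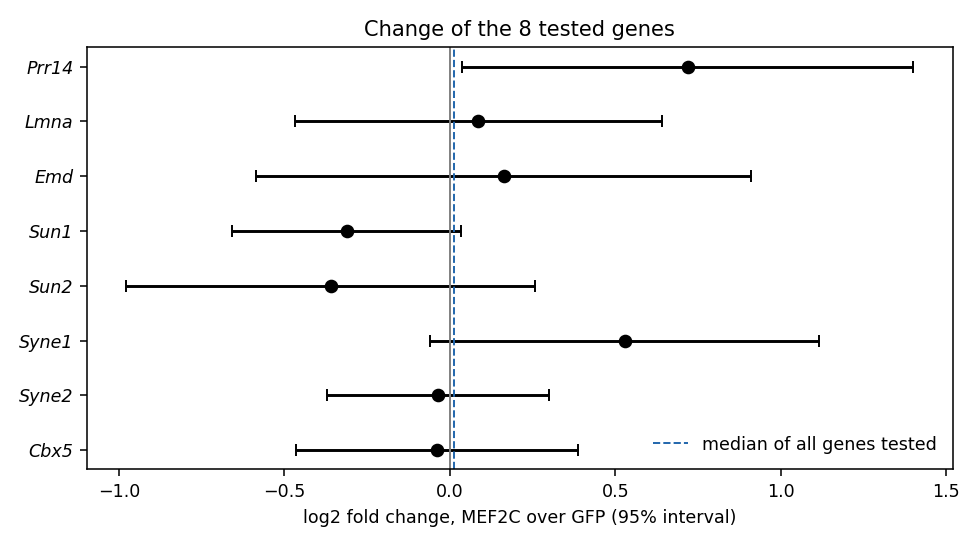
Log2 fold change of MEF2C over GFP (x axis) for the 8 tested genes, with 95% intervals from the edgeR fit; the dashed line is the median of all genes tested, 0.01. The interval of Prr14 runs from 0.04 to 1.40 before adjustment for multiple tests, and the other 7 intervals include 0.

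Levels were compared between genes per kilobase of the longest annotated transcript (CPM per kb, normalised CPM divided by length). Emd was highest, with a range of 5.77 to 14.5 over the 6 libraries, followed by Sun1 (6.26 to 9.11) and Lmna (4.92 to 9.31). These ranges overlapped, and Sun1 exceeded Lmna in 3 of 6 libraries. A second tier held Prr14 (1.36 to 3.24), Cbx5 (1.71 to 2.26), Sun2 (1.07 to 2.08) and Syne2 (1.28 to 1.42), whose neighbours in the order also overlapped. Lmna exceeded Prr14 in all 6 libraries with no overlap, as Syne2 did Lmnb2.

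The lowest levels per kb were those of Lmnb2 (0.3002 to 0.822), Syne1 (0.218 to 0.555) and Lmnb1 (0.112 to 0.730), again with overlapping ranges. The order depends on the length used: with the mean length of the annotated transcripts only 3 of the 10 genes kept their rank, Lmna, Cbx5 and Lmnb1, and without length scaling the same number did. In Nanopore cDNA data a read can stand for a whole molecule, and the levels without length scaling placed Sun1, Syne2 and Lmna highest, at means over all libraries of 31.1, 28.8 and 28.6 CPM. Lmnb1 was last by each of these measures. By CPM per kb Emd exceeded 72.2% of the genes tested and Lmna 64.3%.

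The surrounding genes of the pathway gave no call either. In 6 further lists of 66 genes, 58 were tested. Of these 0 were called by edgeR (0.0758% of all genes), and 1 lay at an unadjusted p under 0.05 (5.71%). DESeq2 called 0 of 64, with 0 at an unadjusted p under 0.05 (2.03% of all genes). It gave no adjusted p to Sun2, at a mean of 25.8 reads per library. Listed genes with lower means, such as Setdb1 (20.5), could therefore not be called by DESeq2. With limma-voom 0 of 58 were called, with 1 at that threshold (5.50%). Positive changes were found in 29 of the 58, with a median log2 fold change of 0.00. For 4 of the 58 the groups did not overlap, beside 11.1% of all genes. All 4 were lower in MEF2C libraries (5.33% of all genes) and 0 were higher (5.75%).

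In the list of 16 inner-membrane genes and lamina partners 7 were positive, and the median was -0.02. Lemd3, an inner-membrane protein that restrains SMAD signalling, showed a log2 difference of -0.57 ± 0.36 (SE; edgeR adjusted p = 0.930). Tmem38a, a potassium channel of the sarcoplasmic reticulum and nuclear envelope, was abundant, at 786, 734 and 676 CPM across MEF2C replicates 1 to 3 and 787, 854 and 800 CPM across GFP replicates 1 to 3. Its MEF2C libraries all lay below the GFP libraries, MEF2C replicate 1 by less than 1 CPM, and the fitted difference was -0.15 ± 0.11 on the log2 scale (SE; edgeR adjusted p = 0.970).

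The 5 prelamin-processing genes had a median of 0.01; Icmt, which methylates the farnesylated end of prelamin, stood at 0.22 ± 0.35, and Fntb, a subunit of the farnesyl transferase, at 0.14 ± 0.22 (edgeR adjusted p = 0.993 for both). Of 9 further SUN and KASH genes and force linkers only 4 were tested, with a median of 0.10. Desmin (Des), the intermediate filament of muscle, showed a log2 difference of 0.25 ± 0.18 (edgeR adjusted p = 0.952). Plectin (Plec), which links filaments to the envelope, had 0.12 ± 0.16 (edgeR adjusted p = 0.993).

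Among 12 tested genes of HP1 proteins and histone methylation 7 were positive, with a median of 0.03. Setdb1, a histone H3 lysine methyltransferase of silent chromatin, stood at 4.405, 3.98 and 4.60 CPM across MEF2C replicates 1 to 3, and at 6.22, 7.34 and 7.16 CPM across GFP replicates 1 to 3. Each MEF2C library lay below each GFP library, by a log2 fold change of -0.67 ± 0.28 (SE; unadjusted p = 0.0329; edgeR adjusted p = 0.852). That unadjusted p was 0.05 or more without MEF2C replicate 1, MEF2C replicate 2, GFP replicate 2 or GFP replicate 3, with DESeq2, with library totals and with the replicate block. Suv39h1, another methyltransferase of this kind, had -0.52 ± 0.32 (edgeR adjusted p = 0.928), also without overlap.

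PRR14 also binds the phosphatase PP2A in human cells. Of 9 tested genes in the list of the paralogue Prr14l and PP2A subunits 3 were positive, and the median was -0.04. Prr14l showed a log2 difference of 0.65 ± 0.51 and Ppp2r5a, a regulatory subunit, 0.28 ± 0.25 (edgeR adjusted p = 0.976 and 0.989). The 12 nuclear pore genes had 6 positive changes and a median of -0.02. Pom121, which anchors the pore in the membrane, stood at -0.60 ± 0.32 and the scaffold gene Nup93 at -0.25 ± 0.30 (edgeR adjusted p = 0.928 and 0.993).

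**Figure D4:**
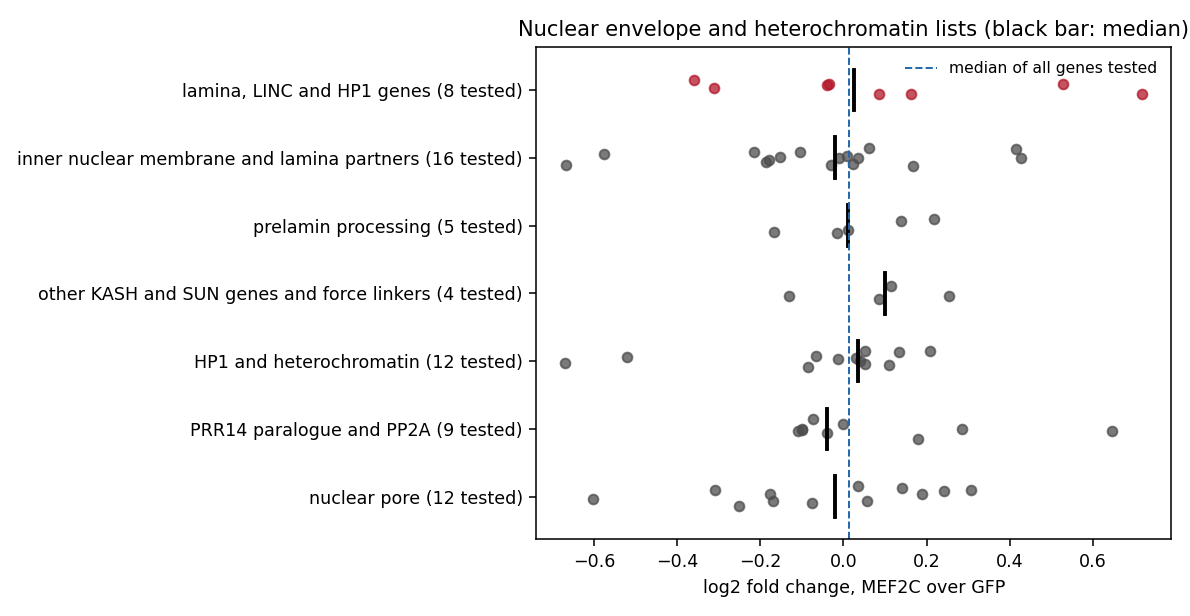
Log2 fold change of MEF2C over GFP (x axis) of each tested gene, by list (rows), with a black bar at the median of the list and a dashed line at the median of all genes tested. The medians of the 7 rows lie between -0.04 and 0.10.

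**Figure D5:**
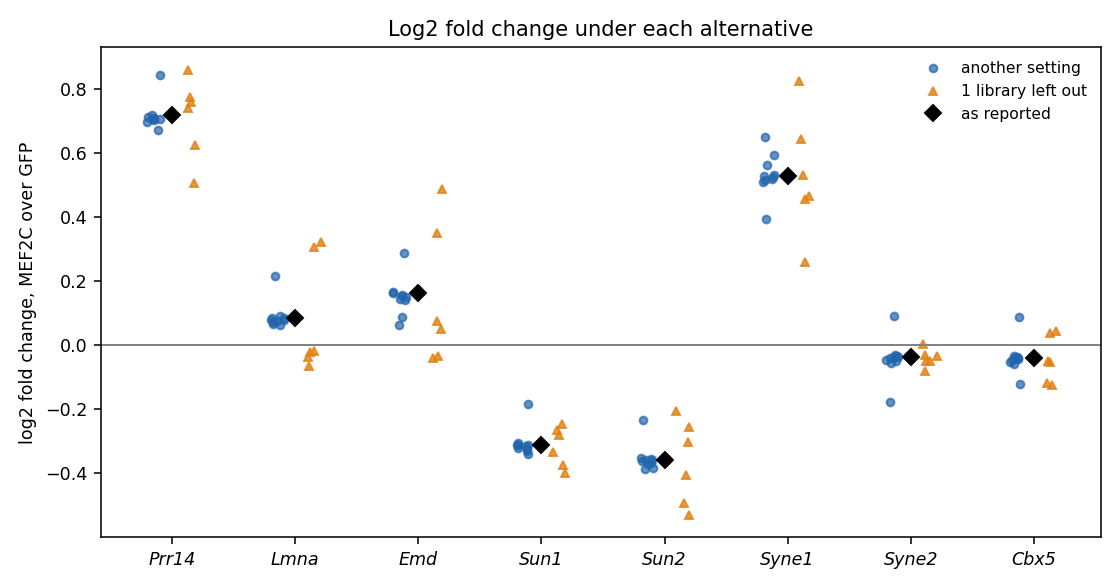
Log2 fold change of the 8 tested genes (y axis) as reported, under each other setting and with 1 library left out. Prr14 and Syne1 stay above 0 and Sun1 and Sun2 below 0 in each setting that tested them, while Lmna, Emd, Syne2 and Cbx5 cross 0 in at least 1.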

How the data were processed

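The 10 genes, the wider lists and the markers were chosen with earlier results of these data known. The authors deposited raw read counts per gene, per the file headers; whole numbers were used as they stood. They also deposited CPM, per the file headers, which served only to recover library totals: listed genes held 95.6% to 96.4% of them. The submitters' processing notes name minimap2, GRCm38 and DESeq2 1.6.3 without roles; the sources used here do not state the counting, the annotation or the use of strand. The 30 rows naming no gene (0 counts) were left out. Coordinates and lengths came from GENCODE vM21 (GRCm38), which matched 22022 of 22036 IDs.

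Genes were tested with edgeR 4.0.16 (R 4.3.3): filtering by group, TMM, robust quasi-likelihood, Benjamini-Hochberg over 9229 genes. The test was checked on simulated counts with the same dispersion for every gene. Only genes with higher mean counts than Prr14 were changed there, so the check does not cover changes in Prr14, Lmnb1 or Lmnb2. SEs came from the F statistic, intervals from its degrees of freedom. Normalised CPM used TMM-scaled totals. Ratios of 2 genes used exact permutation. Alternatives were DESeq2 1.42.0, limma-voom (limma 3.58.1), other scalings and filters, a loess length correction (span 0.3), a replicate block and leaving out each library. From each wider list the 2 genes with the smallest p are named, since none was called. Named outside this rule were the neighbours of Prr14 and the examples of markers. The alternative for normalised values was not run, since counts were given.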

Additional observations from a re-analysis of the deposited data

How the results depend on the processing

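Under 10 other settings and 6 fits with 1 library left out, 0 of the members tested were called. Lmnb1 and Lmnb2 were tested only with no low-count filter and with DESeq2. DESeq2 gave no adjusted p to Lmnb1, Lmnb2, Prr14 or Sun2, so it could not call them. The 7 calls over all genes became 35 with no low-count filter, 3 with the strict filter, 28 with the DESeq2 Wald test, 0 with non-robust dispersion (557 at an unadjusted p under 0.05) and 2 with the replicate block, and lay between 0 and 22 with 1 library left out. Members at an unadjusted p under 0.05 numbered 2 with library totals (8.34% of all genes) and with no low-count filter (5.69%). Both times these were Prr14 and Syne1. There were 0 with the strict filter (5.91%), which left out Prr14, with DESeq2 (2.03%), limma-voom (5.50%) and the replicate block (4.72%). With 1 library left out they numbered 0 to 2, beside 3.96% to 6.83% of all genes. Members whose groups did not overlap numbered 1 with library totals (14.5% of all genes) and with the strict filter (11.3%). They numbered 3 with the length correction (12.1%), and 2 to 4 with 1 library left out (18.8% to 24.4%). With library totals Syne2 and Cbx5 turned to log2 fold changes of 0.092 and 0.089. With 1 library left out, log2 fold changes ran from -0.066 to 0.32 for Lmna, -0.039 to 0.49 for Emd, -0.081 to 0.0029 for Syne2 and -0.12 to 0.044 for Cbx5, and the log2 difference in the Sun2 to Sun1 ratio from -0.18 to 0.093. The causes of these shifts were not tested.

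The same-numbered libraries' deviations correlated at -0.23, 0.05 and -0.25, and those of differently numbered libraries at -0.12 to 0.32. These values showed no pairing by replicate number, but 3 libraries per group are too few to settle it. With the replicate block the log2 fold change of Prr14 was 0.70 (unadjusted edgeR p = 0.0660), and the blocked differences in the 3 ratios were -0.33, -0.05 and -0.62, where an exact permutation over 3 pairs cannot go below p = 0.25. The median change of the members moved by less than the spread between libraries (SD 0.13) under each alternative, but its sign changed in some. It was 0.15 with library totals, where the median of all genes was 0.14. It was -0.03 with the strict filter and with the length correction. With 1 library left out it lay between -0.05 and 0.06. The length correction gave no lamin ratio, since Lmnb1 and Lmnb2 did not pass the filter. Depth limits the B-type lamins most, at 1 to 12 reads per library.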
